A study of Mus musculus with 10 samples.

Results

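The genes described here are 37 genes of glycolysis and of the hypoxia-inducible factor (HIF) response, chosen by name and measured in mouse dorsal root ganglia (DRGs) at E13.5, an embryonic day at which their sensory neurons extend axons. They cover the glucose and lactate transporters, the glycolytic enzymes with their isoforms, the switches of glycolytic flux, the HIF subunits with their oxygen sensors, and HIF targets outside glycolysis. Of these, 34 were measured by a probe set whose annotation names a single gene, out of 19938 genes tested. Gpi1, Eno1 and Gapdh had no such probe set and were not analysed here (Gapdh was named together with other genes on 25 probe sets).

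The 5 Lkb1 KO samples came from embryos in which Wnt1-Cre deleted a floxed Lkb1 gene (Stk11) in the neural crest lineage, which gives rise to DRG neurons and glia, and the 5 WT samples came from wild type embryos. The methods give a mixed genetic background and littermate WT controls, but the labels do not give the litter of a sample. For each array, which was of the one-colour kind, the ganglia of 2 embryos were pooled, so vessels, fibroblasts and blood cells of the ganglion, which do not descend from recombined crest or do so only in part, were measured along with neurons and glia. In such bulk samples, fewer cells of a type and less RNA per cell cannot be told apart. Values are log2 levels after robust multi-array averaging (RMA), a difference of 1 being a doubling, and every difference is Lkb1 KO minus WT.

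Glycolysis splits glucose into pyruvate, which enters the mitochondria or is reduced to lactate and exported. HIF is a transcription factor of an oxygen-labile alpha subunit (Hif1a or Epas1) and a stable partner (Arnt). In the presence of oxygen, prolyl hydroxylases (Egln genes) mark the alpha subunit for destruction, and when it is stable it raises transcription of glucose transporters, of many glycolytic enzymes and of genes for vessel growth and matrix. LKB1 is a kinase upstream of AMPK, the cell's energy sensor, and in cultured mouse fibroblasts its loss is known to raise HIF alpha protein. HIF activity is set mostly by protein stability, which arrays do not measure.

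Stk11 itself read 7.68, 7.82, 7.69, 7.77 and 7.94 in Lkb1 KO replicates 1 to 5, against 8.61, 8.61, 8.51, 8.70 and 9.08 in WT replicates 1 to 5 (log2 fold change -0.92, SE 0.09, adjusted p = 1.15e-04 from limma). Every Lkb1 KO array was below every WT array. In Lkb1 KO replicate 1, 19 of the 34 members had their highest value of all 10 arrays (55.9%), while that array was the highest for 10.7% of all genes. In Lkb1 KO replicates 2 and 5, the mean of 3 Y-linked genes was 5.02 and 5.21, against 8.80 to 9.81 in the other arrays, so these pools held female embryos and each of the others at least 1 male. The number of arrays, 5 a group, limits the precision of every value.

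Slc2a1, the glucose transporter GLUT1, Slc16a3, the lactate exporter MCT4, and P4ha2, a collagen prolyl 4-hydroxylase subunit, were higher in Lkb1 KO DRGs. No member was lower at an adjusted p under 0.05, and 31 of the 34 did not pass the test. Called higher were thus 3 of 34 members (8.82%), beside 2.49% of all genes, and called lower 0 of 34, beside 1.38% of all genes (limma, Benjamini-Hochberg over all genes tested). At an unadjusted p under 0.05, 9 members were higher, beside 7.51% of all genes, and Pfkm alone was lower, beside 7.77%. In 3 members (Slc2a1, Slc16a3 and Pdk1) every Lkb1 KO array lay above every WT array, which held for 3.09% of all genes, and in none did every Lkb1 KO array lie below, which held for 2.24%. The median change over the members was 0.05, beside -0.0017 over all genes, and all 3 called changes were under 0.5 on the log2 scale.

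With the replicate number as a block, P4ha1 was added, giving 4 higher members (11.8%, beside 3.59% of all genes), and Slc2a3 became the 1 lower member (beside 2.83%). Without Lkb1 KO replicate 1, Slc2a1 and Slc16a3 were called higher (2 of 34, 5.88%, beside 2.44% of all genes) and Slc2a3 lower (1 of 34, beside 1.74%). In an analysis of variance per gene, without limma's shared estimate of the spread, none of the members was called. The adjusted p from that analysis of variance was 0.0567 for Slc2a1, 0.0763 for Slc16a3 and 0.133 for P4ha2. How many of all genes it called was not counted.

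**Figure D1:**
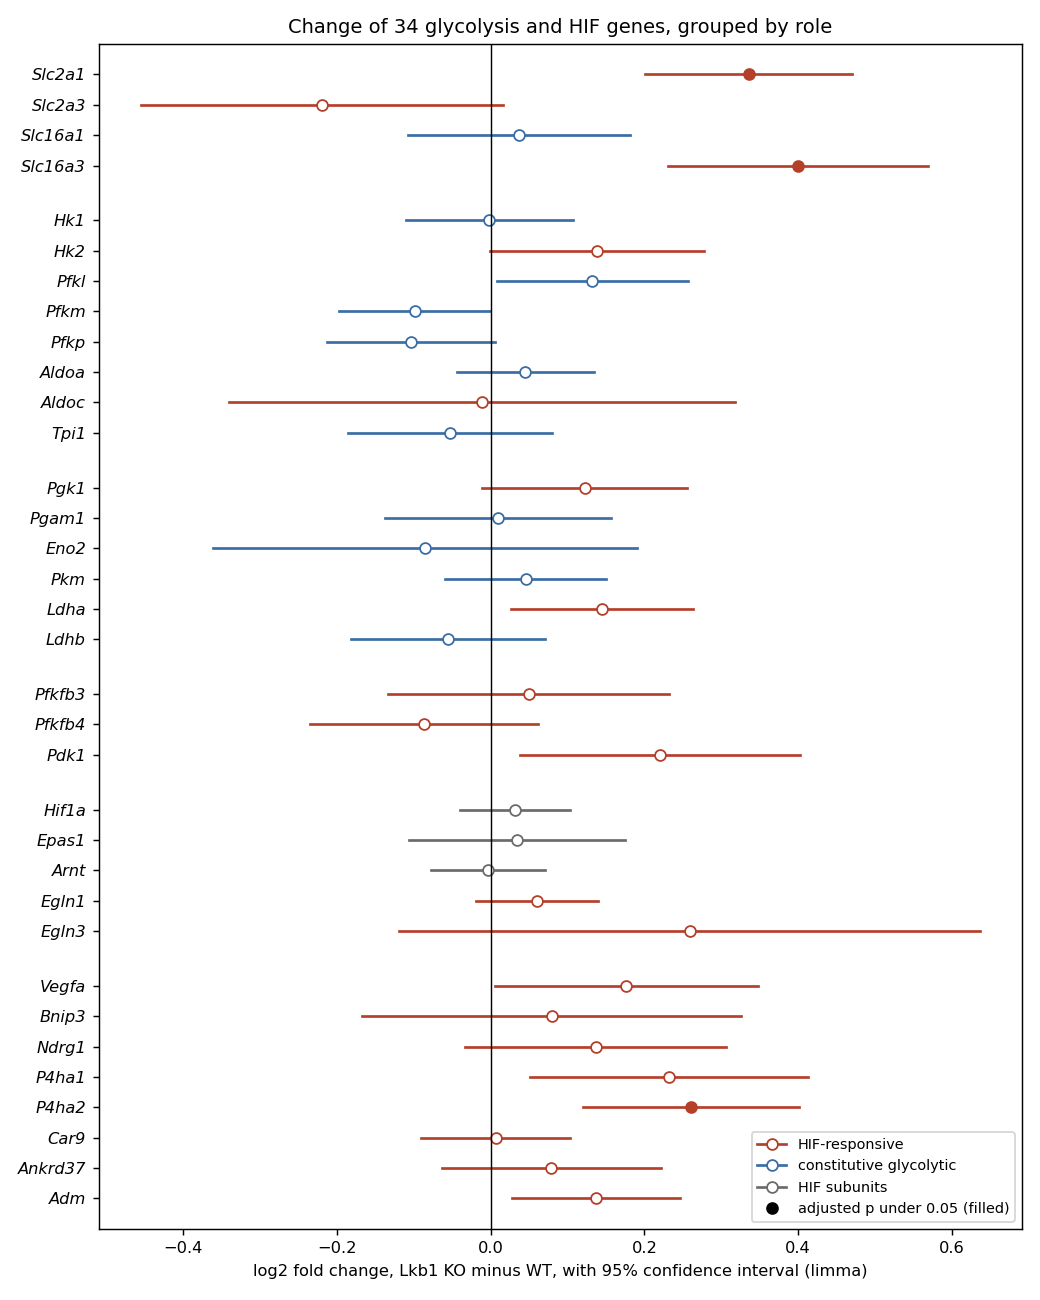
Log2 fold change of the 34 measured members, Lkb1 KO minus WT, with its 95% confidence interval from limma (horizontal axis), grouped by role. The 3 filled points, Slc2a1, Slc16a3 and P4ha2, passed an adjusted p of 0.05. Of the HIF targets outside glycolysis at the bottom, 8 of 8 had a positive point estimate. Without Lkb1 KO replicate 1, those of Bnip3 (-0.03) and Car9 (-0.0020) were negative.

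The sequences just before the transcription starts were read for the core that HIF binds, ACGTG or GCGTG. Promoters of 31 of the 34 members (43 promoters) were found in RefSeq (GRCm38.p6), the exceptions being Slc2a3, Ndrg1 and Epas1. Over the 250 bases before the start, with both strands searched, 38.6% of all 32851 promoters in the table and 46.2% of the 19177 promoters of genes tested here held at least 1 such core. It was present in 21 of 23 promoters of HIF-responsive members (91.3%) and in 12 of 18 promoters of constitutive glycolytic members (66.7%). ACGTG alone was found in 15 of 23 (65.2%) and 7 of 18 (38.9%), beside 16.6% of all promoters and 18.4% of those of genes tested. Each share counts promoters, not genes. The 23 belong to 18 genes and the 18 to 11, and some promoters of Aldoa and of Pfkm overlap. By gene, every HIF-responsive one and every constitutive one but Eno2 and Tpi1 had a core of either kind in at least 1 promoter. Base composition differed as well, with a median GC content of 62.8% in HIF-responsive and 59.8% in constitutive members' promoters, against 56.8% in promoters of genes tested and 52.4% in all promoters, and its part in these shares was not tested. A match is only a match of letters, not a bound site. Genes were put in the HIF-responsive class for a known HIF response, so the share of cores there is not independent of that choice.

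Shown 5′ to 3′ on the gene's strand are the promoters of the 3 called members, 1 promoter of Ldha and that of Tpi1. Ldha, the textbook HIF target with the most cores among the promoters shown here, was not called. Tpi1, an enzyme put in the constitutive class though of less certain class, had no core, unlike most genes of that class. Capitals mark the cores, which read CACGT or CACGC where they lie on the other strand, and CACGTG counts once on each strand.
Slc2a1 (chr4:119108495-119108744, plus strand): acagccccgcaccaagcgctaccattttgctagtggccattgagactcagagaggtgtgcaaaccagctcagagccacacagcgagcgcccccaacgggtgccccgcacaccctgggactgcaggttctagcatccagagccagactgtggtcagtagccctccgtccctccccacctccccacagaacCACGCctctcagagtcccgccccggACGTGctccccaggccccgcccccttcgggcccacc
Slc16a3 (chr11:120948817-120949066, plus strand): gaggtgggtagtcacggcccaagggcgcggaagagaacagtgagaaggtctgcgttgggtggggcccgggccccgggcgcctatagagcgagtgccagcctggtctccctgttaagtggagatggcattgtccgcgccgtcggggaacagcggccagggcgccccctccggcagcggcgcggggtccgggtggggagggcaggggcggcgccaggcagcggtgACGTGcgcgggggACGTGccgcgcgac
P4ha2 (chr11:54100674-54100923, plus strand): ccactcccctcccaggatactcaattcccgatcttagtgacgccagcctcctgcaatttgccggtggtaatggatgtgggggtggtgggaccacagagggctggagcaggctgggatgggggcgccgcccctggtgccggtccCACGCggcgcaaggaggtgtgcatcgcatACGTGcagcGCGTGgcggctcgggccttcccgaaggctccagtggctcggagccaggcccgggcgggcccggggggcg
Ldha (chr7:46845554-46845803, plus strand): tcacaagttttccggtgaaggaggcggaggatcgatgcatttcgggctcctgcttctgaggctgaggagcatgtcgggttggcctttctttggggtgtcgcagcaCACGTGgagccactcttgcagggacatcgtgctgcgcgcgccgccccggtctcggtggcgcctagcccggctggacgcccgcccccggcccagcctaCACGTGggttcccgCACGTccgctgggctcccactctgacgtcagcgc
Tpi1 (chr6:124814159-124814408, minus strand): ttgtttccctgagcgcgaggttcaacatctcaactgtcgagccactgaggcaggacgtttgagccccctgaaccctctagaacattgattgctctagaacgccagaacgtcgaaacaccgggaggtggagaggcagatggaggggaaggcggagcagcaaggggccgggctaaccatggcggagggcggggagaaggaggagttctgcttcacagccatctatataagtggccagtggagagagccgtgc
Slc2a1 held 1 core of each kind, Slc16a3 2 of ACGTG close to the start, P4ha2 3 in all and Ldha 5, counting both strands. Ldha, with 5 cores, changed by 0.14, and Slc16a3, with 2, by 0.40. Whether the number of cores goes with the size of a change was not tested. Another Ldha promoter, not shown, held 1 core.

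Among the transporters, both genes called were carriers of glycolytic cells. Slc2a1 read 10.21, 9.91, 9.85, 10.05 and 10.05 in Lkb1 KO replicates 1 to 5, against 9.73, 9.59, 9.63, 9.75 and 9.69 in the WT replicates. All Lkb1 KO arrays were above all WT arrays, and replicate 1 was the highest. The change was 0.34 (SE 0.06, adjusted p = 0.00938 from limma, exact permutation p = 0.00794, the smallest that 5 against 5 arrays allow), a fold of 1.26, and it passed with each array left out in turn (adjusted p = 0.00541 to 0.0301).

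Slc16a3 had levels of 7.66, 7.39, 7.13, 7.45 and 7.41 in Lkb1 KO, against 7.05, 6.95, 7.09, 7.01 and 6.93 in WT. The groups did not overlap, although Lkb1 KO replicate 3, at 7.13, lay close to the highest WT array, at 7.09. Its change of 0.40 (SE 0.08, adjusted p = 0.0124 from limma) was a fold of 1.32. With the Y-linked mean as a covariate the adjusted p was 0.0701, and without the Lkb1 KO replicates that lacked Y-linked signal it was 0.0653, so the call was lost in both. The size of the change stayed near that of the main fit, at 0.39 with the covariate and 0.40 with the fewer arrays.

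Slc2a3, the glucose transporter GLUT3 of neurons, moved the other way. It read 9.27, 8.82, 8.79, 8.70 and 8.68 in Lkb1 KO, against 9.34, 9.06, 9.10, 8.94 and 8.92 in WT. Replicate 1 was the highest array of its group in both genotypes, and in each of the 5 same-numbered pairs the Lkb1 KO array was the lower one. The change of -0.22 (SE 0.11) had an adjusted p of 0.374 without and 0.014 with the replicate block, and was -0.32 (adjusted p = 0.0381) without Lkb1 KO replicate 1 (limma). Slc16a1, the transporter MCT1 that carries lactate and pyruvate, differed by 0.04 (95% interval -0.11 to 0.18) and spanned 7.60 to 7.87 in Lkb1 KO and 7.63 to 7.90 in WT.

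None of the 14 measured glycolytic enzymes passed the test, with or without the replicate block, which with 2.49% of all genes called higher and 1.38% lower says nothing particular about them. Hexokinase traps glucose in the cell. Hk2, its inducible form, read 4.99, 4.96, 4.90, 5.23 and 5.12 in Lkb1 KO, against 4.84, 4.82, 5.00, 4.99 and 4.86 in WT (0.14, SE 0.06), and the groups overlapped. Hk1, the form of most neurons, differed by -0.0018 (interval -0.11 to 0.11). The Hk1 probe set used, the brightest, rests on 1 sequence record that 16 other probe sets share with a ribosomal protein gene, and the dimmer Hk1 probe set with RefSeq transcripts differed by -0.08.

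Phosphofructokinase, the committed step, has liver, muscle and platelet forms, all of them expressed in embryonic tissue. Pfkl, the liver form, read 8.68, 8.41, 8.37, 8.52 and 8.49 in Lkb1 KO, against 8.36, 8.40, 8.42, 8.37 and 8.25 in WT (0.13, SE 0.06, adjusted p = 0.286 from limma). Pfkm, the muscle form, read 9.50, 9.49, 9.36, 9.36 and 9.31 in Lkb1 KO, against 9.51, 9.54, 9.43, 9.54 and 9.48 in WT (-0.10, SE 0.05, adjusted p = 0.325 from limma). Pfkp, the platelet form, had levels of 10.31, 10.11, 10.24, 10.12 and 10.13 in Lkb1 KO, against 10.36, 10.32, 10.33, 10.22 and 10.20 in WT (-0.10, SE 0.05, adjusted p = 0.361 from limma). In all 3 the groups overlapped, Pfkl with its mean on the higher side in Lkb1 KO and the other forms on the lower. Further down, the aldolases Aldoa (0.04) and Aldoc (-0.01) and the isomerase Tpi1 (-0.05) had intervals that held 0. Aldoc was the most variable of them, spanning 8.17 to 9.05 in Lkb1 KO and 8.24 to 8.73 in WT.

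In the later steps of the pathway, Ldha, the lactate dehydrogenase subunit that favours lactate, came closest to the test. It read 10.98, 10.88, 10.69, 10.84 and 10.91 in Lkb1 KO, against 10.64, 10.76, 10.80, 10.74 and 10.64 in WT. The Lkb1 KO arrays were above all WT arrays except for replicate 3 (0.14, SE 0.05, adjusted p = 0.208 from limma). Ldhb, the subunit that favours pyruvate, differed by -0.06 (interval -0.18 to 0.07). A dimmer Ldhb probe set, like the one used with RefSeq transcripts, differed by 0.01. The ATP-forming kinase Pgk1 differed by 0.12 (interval -0.01 to 0.26) and the pyruvate kinase Pkm by 0.05. The mutase Pgam1 (0.0096) and the neuronal enolase Eno2 (-0.09) completed the group, and Eno2 spanned 8.78 to 9.32 in Lkb1 KO and 8.79 to 9.55 in WT, wider than any difference between the groups.

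Of the switches of flux, Pdk1, the kinase that shuts pyruvate dehydrogenase and so keeps pyruvate out of the mitochondria, read 7.77, 7.31, 7.32, 7.38 and 7.33 in Lkb1 KO, against 7.27, 7.28, 7.27, 7.11 and 7.08 in WT. The groups did not overlap, but replicate 1 stood far above the other Lkb1 KO arrays, of which the lowest, at 7.31, lay close to the highest WT array, at 7.28. The change was 0.22 (SE 0.08). Without adjustment over genes, p was 0.00794 in the exact permutation test and 0.0213 in limma. Adjusted over all genes tested, the limma p was 0.213. Without Lkb1 KO replicate 1 the change was 0.13. Pfkfb3 (0.05) and Pfkfb4 (-0.09), the kinase-phosphatases that make the activator of phosphofructokinase, had intervals that held 0.

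The HIF machinery itself showed no called change at the RNA level. Hif1a differed by 0.03 (interval -0.04 to 0.10), Epas1, the alpha subunit prominent in vessels, by 0.03 (-0.11 to 0.18), and Arnt by -0.0034 (-0.08 to 0.07). Egln1, the main oxygen sensor, differed by 0.06 (-0.02 to 0.14). Egln3, a sensor that HIF itself induces, differed by 0.26, with a wide interval of -0.12 to 0.64. That difference came largely from Lkb1 KO replicate 2, at 7.22, since the other Lkb1 KO arrays lay between 6.01 and 6.35 and the WT arrays between 6.05 and 6.24.

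Outside glycolysis, the prolyl 4-hydroxylase alpha subunits, which hydroxylate collagen and are classical HIF targets, stood at the front. P4ha2 read 6.09, 5.98, 5.78, 6.01 and 5.92 in Lkb1 KO, against 5.68, 5.61, 5.85, 5.74 and 5.58 in WT. The Lkb1 KO arrays were above all WT arrays except for replicate 3, which lay below replicate 3 of WT. The change of 0.26 (SE 0.06, adjusted p = 0.0428 from limma) sat close to the threshold: leaving out 1 array ended the call in 8 of 10 cases (adjusted p = 0.0659 to 0.114), all but the third replicate of either group. Adjusting for the Y-linked mean (adjusted p = 0.155) or leaving out the Lkb1 KO pools without Y-linked signal (0.144) ended it too. The size of the change was 0.25 and 0.27 in these 2 fits. P4ha1 had levels of 9.41, 8.96, 9.01, 8.92 and 9.08 in Lkb1 KO, against 8.99, 8.76, 8.89, 8.83 and 8.76 in WT (0.23, SE 0.08), with an adjusted p of 0.182 without and 0.0294 with the replicate block (limma). Lkb1 KO replicate 1 was again its highest array, and the groups overlapped.

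Secreted factors followed, neither past the test. Vegfa, the vessel growth factor, read 8.50, 8.13, 8.03, 8.05 and 8.26 in Lkb1 KO, against 8.13, 8.02, 8.002, 7.97 and 7.98 in WT (0.18, SE 0.08, adjusted p = 0.306 from limma). Adm, which encodes the vasodilator adrenomedullin, read 4.57, 4.78, 4.61, 4.77 and 4.56 in Lkb1 KO, against 4.51, 4.47, 4.53, 4.51 and 4.58 in WT (0.14, SE 0.05, adjusted p = 0.197 from limma). The groups overlapped in each, and Adm, like Hk2, lay in the dim range of the array. Ndrg1, known for its role in Schwann cells, differed by 0.14 and was higher in Lkb1 KO in all 5 same-numbered pairs, with an adjusted p of 0.470 without and 0.063 with the replicate block (limma). The mitophagy receptor Bnip3 (0.08), the ankyrin repeat gene Ankrd37 (0.08) and the carbonic anhydrase Car9 (0.0068) had intervals that held 0. Car9, often used as a marker of hypoxic tissue, was also dim, at 4.50 to 4.64 in Lkb1 KO and 4.46 to 4.64 in WT.

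**Figure D2:**
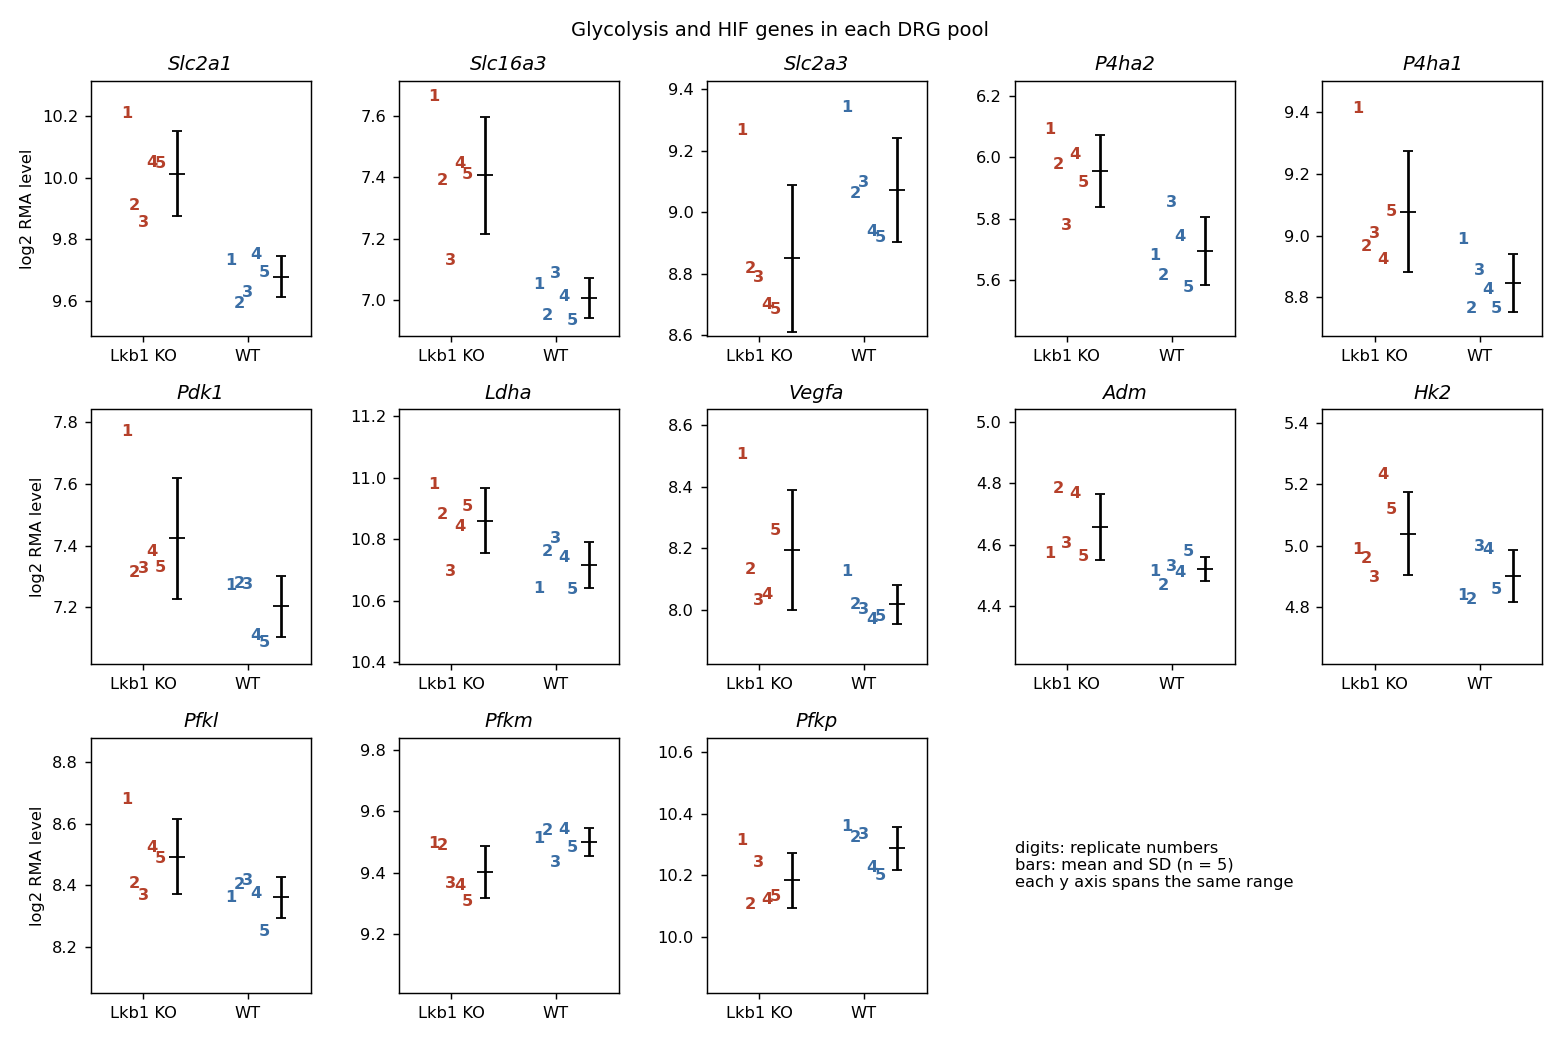
Log2 RMA level (vertical axis, same span in every panel) of 13 members in the 5 Lkb1 KO and 5 WT pools, with the digits giving replicate numbers and the bars the mean and SD (n = 5). The groups are separate in Slc2a1, Slc16a3 and Pdk1, and Lkb1 KO replicate 1 is the top Lkb1 KO array in 11 of the 13 panels.

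The members were then set out by class, those with a known HIF response against glycolytic genes classed as constitutive. The classes were written with earlier results of these data known and are described without a test. All 3 calls fell among the 20 HIF-responsive members, of which 17 had a positive change and 3 a negative one (Aldoc, Pfkfb4 and Slc2a3), with a median of 0.14. None of the 11 measured constitutive members was called, which is close to the share over all genes (2.49% higher and 1.38% lower), 5 changes were positive and 6 negative, and the median was -0.0018. Over all genes, 49.1% of changes were positive. In the constitutive class, Aldoa, Pfkl, Tpi1, Pgam1 and Pkm were of less certain class. With them moved to the HIF-responsive class, 1 of the 6 constitutive members left had a positive change (median -0.070). Of the HIF-responsive members, 21 of 25 were then positive (median 0.12).

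By array, the mean of the HIF-responsive members was 8.13, 7.96, 7.82, 7.91 and 7.88 in Lkb1 KO replicates 1 to 5, against 7.87, 7.82, 7.86, 7.79 and 7.73 in WT. Replicate 1 stood highest, replicate 3 of Lkb1 KO lay below replicates 1 and 3 of WT, and the groups overlapped. In the constitutive members the mean was 10.12, 9.97, 9.98, 9.96 and 9.98 in Lkb1 KO, against 10.06, 10.04, 10.01, 9.995 and 9.96 in WT, again with the first replicate of each group on top. Lkb1 KO replicate 1 was the highest array in 14 of the 20 HIF-responsive and 4 of the 11 constitutive members. Without it, the median change of the HIF-responsive members was 0.10 with 14 of 20 positive, and that of the constitutive members -0.06 with 5 of 11 positive.

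**Figure D3:**
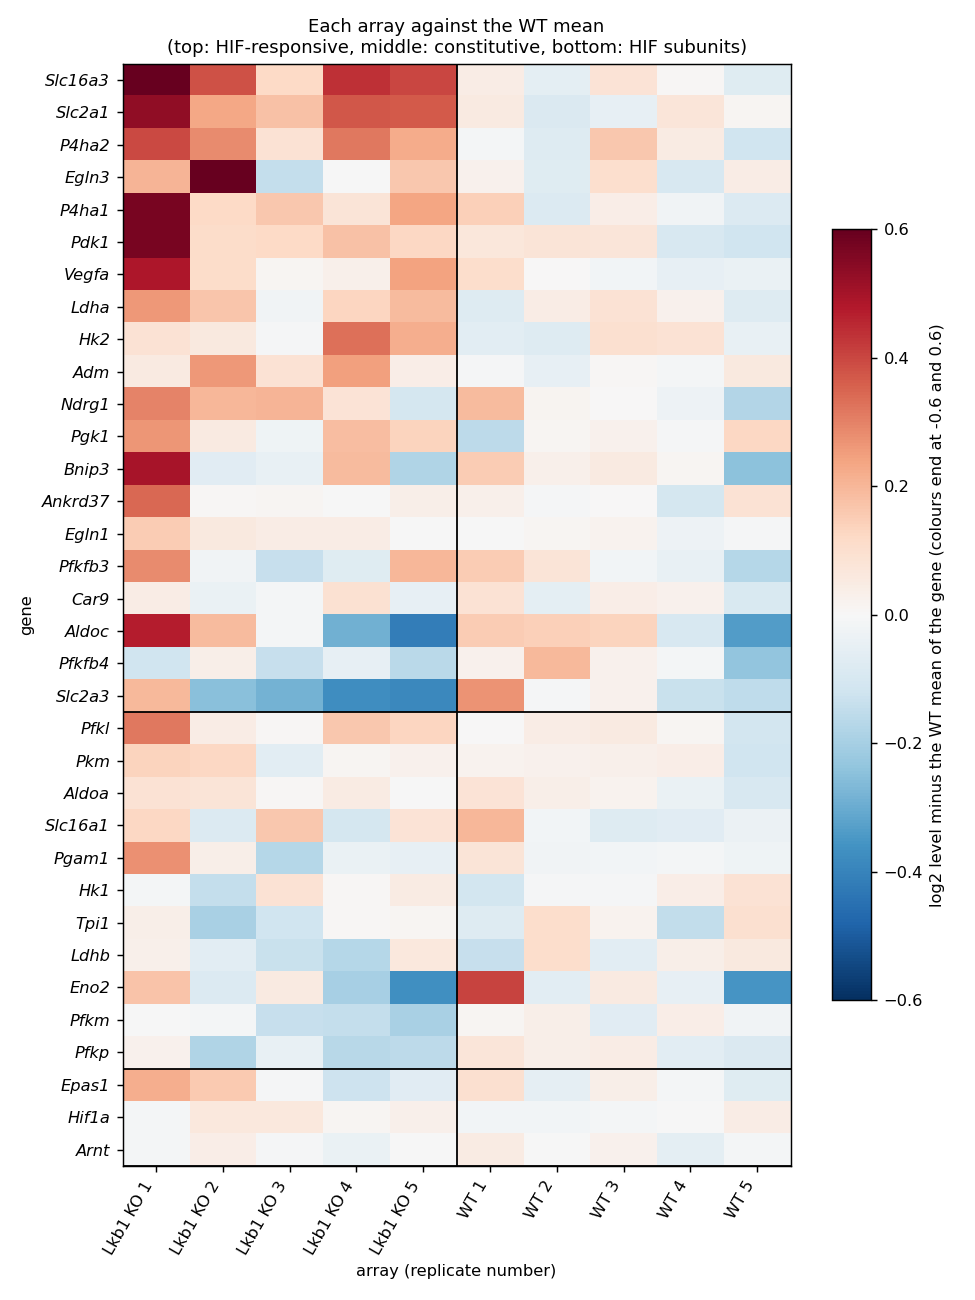
Log2 level of each member (rows) in each array (columns, Lkb1 KO left and WT right) minus the WT mean of that gene. Lkb1 KO replicate 1 is the reddest column and holds the highest value in 19 of 34 members, and Slc16a3, Slc2a1 and P4ha2 are above the WT mean in all 5 Lkb1 KO columns.

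Where a step has several isoforms, their changes were compared by their difference within each array, in 11 pairs. No pair passed an adjusted p of 0.05 over the 11 (exact permutation test, two-sided), and a pair alone at the smallest exact p that the design allows, 0.00794, could not, since its adjusted p would be 0.0873. Slc2a3 changed by -0.56 relative to Slc2a1, and the difference of the pair did not overlap between the groups (exact p = 0.00794, adjusted p = 0.0873), being lower in Lkb1 KO in all 5 same-numbered pairs. The platelet form Pfkp changed by -0.24 relative to the liver form Pfkl (exact p = 0.0159, adjusted p = 0.0873), and Ldha by 0.20 relative to Ldhb (exact p = 0.0238, adjusted p = 0.0873). With the mean of each gene's probe sets, Ldha changed by 0.17 relative to Ldhb. Slc16a3 changed by 0.36 relative to Slc16a1 (exact p = 0.0397, adjusted p = 0.109). Without Lkb1 KO replicate 3, the first, the second and the last of these pairs passed (adjusted p = 0.0291 each, exact permutation test), and without WT replicate 3, Slc2a3 against Slc2a1 and Ldha against Ldhb did (adjusted p = 0.0437 each, exact permutation test).

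The remaining 7 pairs (Hk2 and Hk1, Pfkp and Pfkm, Aldoc and Aldoa, Pfkfb4 and Pfkfb3, Epas1 and Hif1a, Egln3 and Egln1, P4ha2 and P4ha1) had adjusted p-values of 0.279 to 0.984 in the exact permutation test. For the prolyl 4-hydroxylase subunits, P4ha2 less P4ha1, the difference was 0.03.

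Further genes of the same pathways came from lists written for this work. Of 28 measured further glycolytic isoforms and regulators, 1 was called higher, Slc16a8, the lactate transporter MCT3, at 4.79 to 4.92 in Lkb1 KO and 4.64 to 4.79 in WT (0.16, adjusted p = 0.0476 from limma). A single call of 28 is near the 2.49% of all genes called higher, and it did not pass once replicate 1 of Lkb1 KO was left out (adjusted p = 0.0824), the adjusted p reaching 0.122 with other arrays left out (limma). Pygb, the brain glycogen phosphorylase, differed by -0.18, with an adjusted p of 0.0686 without and 0.0198 with the replicate block (limma), and the ADP-dependent glucokinase Adpgk by 0.11 (0.144). No gene was called among the 12 measured genes of pyruvate entry into mitochondria, where the pyruvate dehydrogenase phosphatase Pdp2 (-0.12) and the subunits Pdha1 (-0.08) and Pdhx (-0.07) came first. The same held for the 7 of the pentose phosphate branch, led by Rpia (-0.07), Pgls (0.04) and H6pd (0.02). It also held for the 10 HIF regulators, led by Hsp90aa1 (-0.05), Hif3a (-0.05) and Cited2 (-0.11). Changes were negative in 11 of the 12 genes of pyruvate entry and in 10 of the 10 HIF regulators (median -0.04 in each). In the pentose phosphate branch 3 were positive and 4 negative, and 49.1% of changes over all genes were positive.

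Among 28 measured further HIF targets, 3 were called higher, beside 2.49% of all genes, and 0 lower, beside 1.38%, with a median of 0.04. Trf, which encodes the iron carrier transferrin, read 8.29, 8.17, 8.13, 8.34 and 8.34 in Lkb1 KO, against 7.79, 7.84, 7.86, 7.83 and 8.02 in WT (0.39, SE 0.06, adjusted p = 0.00172 from limma). Ddit4, an inhibitor of mTORC1 that also responds to other stresses, read 8.99, 9.17, 8.97, 8.96 and 9.12 in Lkb1 KO, against 8.32, 8.75, 8.72, 8.74 and 8.48 in WT (0.44, SE 0.08, adjusted p = 0.00995). In both, no Lkb1 KO array overlapped the WT arrays, and Lkb1 KO replicate 1 was not the highest. Plod2, a collagen lysyl hydroxylase, changed by 0.23 (SE 0.05, adjusted p = 0.0173 from limma).

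Markers of other cell types moved with genotype too. Over all genes, 2.49% were called higher and 1.38% lower (3.59% and 2.83% with the replicate block). Fibroblast and mesenchyme markers, which include Col1a1, Lum and Postn, were higher in 8 of 9 measured genes, with list means of 9.21 to 9.30 in Lkb1 KO and 8.86 to 8.98 in WT. Proliferation markers were higher in 8 of 11, at 9.03 to 9.32 in Lkb1 KO and 8.69 to 8.92 in WT. Sensory neuron markers were lower in 3 of 14 (7 of 14 with the replicate block), at 9.89 to 10.004 in Lkb1 KO and 10.05 to 10.20 in WT. Each of these lists was separate between the groups. Slc2a1, Slc16a3, P4ha1, P4ha2 and Plod2 were higher, as were both the fibroblast and the proliferation lists. Slc2a3 was lower, as was the neuron list. In the main fit P4ha1 and Slc2a3 were not called (adjusted p = 0.182 and 0.374 from limma). Whether these shifts are linked was not tested.

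Of the endothelial markers 1 of 10 was called higher (Cldn5, 0.29, adjusted p = 0.00532 from limma), with list means of 8.75, 8.60, 8.51, 8.63 and 8.61 in Lkb1 KO, against 8.56, 8.48, 8.45, 8.52 and 8.56 in WT, and Lkb1 KO replicate 1 was again the highest array. Schwann and satellite cell markers had 1 gene higher and 1 lower of 8, at 9.12 to 9.20 in Lkb1 KO and 9.10 to 9.19 in WT. The higher one was Dhh (0.69, adjusted p = 1.34e-04 from limma), the lower one Cdh19 (-0.50, adjusted p = 7.38e-05 from limma). In both the groups did not overlap, and both changes were larger than that of any member. With opposite signs, they do not show in the list mean. Single calls in lists this short stand beside 2.49% of all genes called higher and 1.38% lower. No erythroid marker of 7 was called, the list spanning 7.34 to 7.79 in Lkb1 KO and 7.32 to 7.78 in WT, with the first replicate of each group lowest. Skeletal muscle markers, with none of 10 called, stood at 6.23 in Lkb1 KO replicate 3 and at 5.40 to 5.54 in the other Lkb1 KO arrays, against 5.32 to 5.50 in WT. The part of these cell types, and of embryo sex, in the changes of Slc2a1, Slc16a3, P4ha2 and the other members was not tested.

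**Figure D4:**
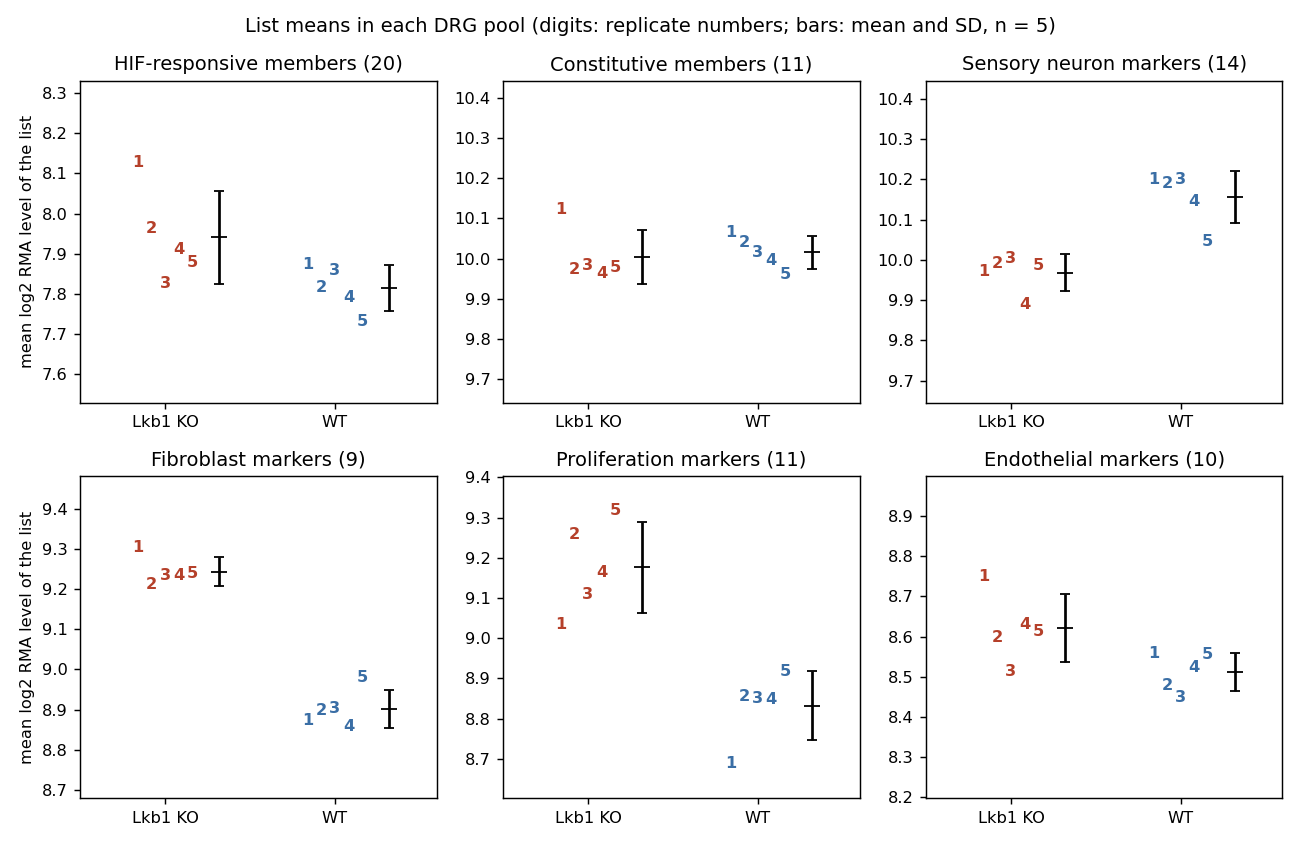
Mean log2 RMA level of 6 gene lists in each pool (vertical axis, the same span of log2 units in every panel, digits for replicate numbers, bars for the mean and SD, n = 5). The constitutive members overlap between Lkb1 KO and WT, the HIF-responsive members overlap with replicate 1 of Lkb1 KO on top at 8.13, and the fibroblast, proliferation and sensory neuron lists are separate.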

How the data were processed

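RNA of 10 pools of E13.5 DRGs, 5 Lkb1 KO and 5 WT, each from 2 embryos, was measured on Affymetrix Mouse Gene 1.0 ST arrays from 250 ng of total RNA. What the authors deposited is a single table, with a log2 level for each of 35556 probe sets. RMA and Partek 6.6 stand in the processing notes of the submitters and MATLAB, at a false discovery rate of 0.01, in the methods; the sources used here do not say which program made the table. Array medians of the table lay between 6.50 and 6.57.

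The platform's annotation named 1 gene for 21789 probe sets, several for 1621, and 12146 were not listed. For a gene with several probe sets, the one with the highest mean over the 10 arrays was used, which left 19938 genes. Groups and replicate numbers came from the sample titles. The genotypes were compared by two-sided moderated tests (limma 3.58.1, R 4.3.3), adjusted over all genes tested by Benjamini-Hochberg, with calls made below an adjusted p of 0.05. Single genes and isoform pairs were also tested by exact permutation over all assignments of the samples to genotypes. Labels call the samples biological replicates.

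Samples of the same number deviated together from their group means over all genes (correlations of 0.21 to 0.48 in the 5 pairs, all above 0.1), so the numbers were taken to pair samples. Correlations with other numbers ran from -0.48 to 0.31, the highest, 0.31, lying between a sample numbered 4 and one numbered 5 and above the same-number values of both (0.21 and 0.24). This pairing comes from the values, since the labels give no shared litter or day.

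Members, classes, gene lists and pairs were chosen with earlier results of these data known. Every member was named. All array values were given for members called with or without the replicate block, for those whose groups do not overlap, and for the 12 with the smallest unadjusted p, and of each other list the called genes and up to 3 with the smallest unadjusted p were named. Of the further HIF targets and the markers, genes were named as called or as examples. Fits were tested on simulated data. Alternatives covered the normalization, the test, the prior, array weights, dim genes, the choice of probe set, the pairing, embryo sex, the threshold and each array left out in turn. Promoters came from RefSeq (GRCm38.p6), and Python 3.11.15 with pandas 2.3.3 was used for the remaining steps.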

Additional observations from a re-analysis of the deposited data

Results flagged for a closer look

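Of 68 groups of 5 arrays, 8 held a member with 1 array far from the others of its group, by a gap over 0.71 of the group's whole range. Chance gives about 1 in 20. Of these, 3 were Lkb1 KO replicate 1, which read 9.27 in Slc2a3 (others 8.68 to 8.82), 7.77 in Pdk1 (others 7.31 to 7.38) and 7.23 in Ankrd37 (others 6.88 to 6.92). Lkb1 KO replicate 2 read 7.22 in Egln3, where the other Lkb1 KO arrays spanned 6.01 to 6.35. In WT, replicate 1 was high in Slc16a1 (7.90, others 7.63 to 7.69) and in Pgam1 (10.91, others 10.81 to 10.82). WT replicate 5 was low in Pkm (10.60, others 10.74 to 10.76) and high in Hif1a (11.23, others 11.17 to 11.18).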

How the results depend on the processing

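The 34 members were recomputed under 22 settings each, less where a setting left a gene out. In 726 of 745 combinations a member stayed called or stayed uncalled, and 31 of the 34 were uncalled in the main fit. In 16 a call was lost, all among the 3 called members and most of them for P4ha2. In 3 a call was gained. No called member changed sign, but 10 uncalled members did in at least 1 setting. The changes of call touched 5 members. With the replicate block 1 member was lower (Slc2a3) and 4 were higher (P4ha1 added), and the block changed no other call of a member. With each array left out in turn, 0 to 1 members were lower and 2 to 3 higher. Called higher were 0 members in the analysis of variance per gene, 1 (Slc2a1) with the Y-linked covariate, 1 without the Lkb1 KO replicates that lack Y-linked signal and 1 at an adjusted p under 0.01. How many of all genes were called under these settings was not counted. Array weights ended the call of P4ha2 (adjusted p = 0.0822 from limma). The cause of these changes was not tested, beyond the fewer arrays or the stricter threshold themselves.

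No isoform pair passed, where a pair alone at the smallest exact p had to miss (adjusted p = 0.0873), and 0 to 3 did with 1 array left out. Exchanging labels within replicate numbers, for the replicate block, can reach no p below 0.0625 in the exact test, so 0 pairs could pass. With enzymes of less certain class moved to the HIF-responsive class, the constitutive median was -0.070 over 6 genes, and with 1 array left out the class medians spanned 0.10 to 0.15 (HIF-responsive) and -0.06 to 0.02 (constitutive). Hk1 taken from its probe set with RefSeq transcripts, a choice made after seeing the data, stayed uncalled. Dim genes such as Adm, Car9, Hk2 and Slc16a8 lie where arrays compress differences, and 5 arrays a group limit all values.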
